A study of Homo sapiens with 8 samples.

Results

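The NKG2D ligands are cell-surface proteins that mark a stressed, infected or transformed cell for natural killer (NK) cells and some T cells. The 8 human ligand genes were followed here, namely MICA, MICB, ULBP1, ULBP2, ULBP3, RAET1E (also called ULBP4), RAET1G (ULBP5) and RAET1L (ULBP6), of the 62649 genes in each file. The genes were chosen by name, as members of the family, and no measured value entered the rule, but the family was put forward with the caffeine responses of both lines already known. All 8 were found by symbol, and 7 of them were among the 17671 genes with enough reads to be tested. RAET1G was the member left out.

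The data were 8 poly-A RNA libraries of 2 human colorectal adenocarcinoma lines, with 2 libraries in each group. SW480 comes from a primary tumour and SW620 from a metastasis of the same person, and both are established lines. Each line was grown with caffeine or, as a control, untreated, which gave 4 groups. Control and treated cells alike carried B8-mCherry, which makes immunoproteasomes fluorescent, so no group stands for the unmodified line. The protocol in the labels describes caffeine for SW620 only, at 30 to 500 µM for 72 hours or at 125 µM for 28 days, and does not say which exposure the sequenced cells had. The labels speak of biological replicates without saying whether these were separate cultures, so the p-values measure the spread between the libraries.

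NKG2D is an activating receptor, encoded by KLRK1, that signals through the adaptor DAP10, encoded by HCST. MICA and MICB span the membrane, while ULBP1, ULBP2, ULBP3 and RAET1L are held on the cell surface by a lipid (GPI) anchor. The ligands are scarce on most healthy cells, are known to appear after DNA damage, heat shock and other stress, and can be shed from tumour cells by metalloproteases. In intestinal epithelium MICA and MICB are the members best known from tissue. Only RNA was measured here, and neither surface protein nor shed protein was.

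Library depth ran from 15760259 to 23269315 reads assigned to genes, so that 3 counts, the most that a count of 0 allows, stood for 0.129 to 0.190 CPM (counts scaled to the library total). Mitochondrial transcripts took 1.63% of the reads in SW480 caffeine replicate 2 and 4.38% to 6.16% in the other 7 libraries. The intestinal epithelial markers (8 listed) summed to 4620 to 6900 CPM in SW480 and 10500 to 14000 in SW620, mostly from KRT8, KRT18 and KRT19. CDX1 was at 0 in every library, and LGALS4 had 0 to 17 counts. With caffeine in SW620 KRT19 was called higher (mean 768 to 1590 CPM) and CDX2 lower (131 to 84 CPM). Markers of other cell types were read too. PTPRC, which encodes the pan-leukocyte protein CD45, had 1 read in SW480 caffeine replicate 2 and 0 elsewhere, and the 25 to 44.2 CPM of the 8 listed leukocyte genes in SW480 came mostly from NCAM1. The SW620 range for that list was 0.403 to 0.833 CPM. NCAM1 was called lower with caffeine in SW480 (mean 36.1 to 23 CPM), at -0.86 to -0.44 on the log2 scale in the fits without 1 library. The NCAM1 call held in 5 of those 8 fits, and each fit that lost it lacked a SW480 library. The 5 fibroblast markers summed to 5.60 to 7.41 CPM in SW480, 37.8 to 40.0 in the SW620 controls and 45.8 to 48.6 with caffeine, mostly from LUM in SW620, with COL1A2 and DCN at or near 0. The 4 endothelial markers summed to 1.35 to 2.10 CPM in SW480, 9.52 to 9.61 in the SW620 controls and 15.2 to 15.6 with caffeine, from PECAM1 and VWF, with CDH5 and KDR at or near 0. COL1A1, PECAM1 and VWF rose with caffeine in SW620 (adjusted p = 0.000193, 0.0391 and 0.0261, edgeR). PECAM1 and VWF lost that call without any 1 of the SW620 libraries, and the part of these markers in the ligand results was not tested. KLRK1 had 0 counts in every library. HCST had 36 to 60 counts per SW480 library and 0 or 1 per SW620 library.

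All 8 genes lie on chromosome 6 (GRCh38) in 2 groups. MICA (chr6:31399784-31415315, plus strand) and MICB (chr6:31494881-31511124, plus strand) lie in the MHC region. The other 6 lie within a stretch of 185.7 kb on the long arm. These are RAET1E (chr6:149883375-149898102, minus), RAET1G (chr6:149916878-149923121, minus), ULBP2 (chr6:149942000-149949235, plus), ULBP1 (chr6:149964007-149973710, plus), RAET1L (chr6:150018334-150025532, minus) and ULBP3 (chr6:150063150-150069095, minus). The positions and exons were taken from GENCODE 29.

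Close copies limit how reads can be assigned within the family. ULBP2 and RAET1L were 96.7% identical over 738 coding bases, with 24 differing bases. RAET1G and RAET1L were 94.7% identical, ULBP2 and RAET1G 94.6%, and MICA and MICB 91.6%. The same 75 coding bases (bases 9 to 83 of the coding sequence, as long as 1 read) of the near-identical trio show where a read can tell these genes apart. This window was picked as the gap-free one where ULBP2 and RAET1L differ most, so it is a best case. Capitals in RAET1L mark bases that differ in either of the others, and capitals in ULBP2 and RAET1G mark differences from RAET1L.
ULBP2: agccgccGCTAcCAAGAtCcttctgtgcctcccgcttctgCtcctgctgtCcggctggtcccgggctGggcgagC
RAET1G: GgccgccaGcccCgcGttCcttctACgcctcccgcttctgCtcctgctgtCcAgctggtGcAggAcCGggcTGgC
RAET1L: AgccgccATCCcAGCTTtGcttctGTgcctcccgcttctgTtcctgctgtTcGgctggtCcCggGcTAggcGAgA
In this window ULBP2 differed from RAET1L at 14 bases and RAET1G at 18, so a read of this window tells the trio apart. Over whole transcripts, 20.55% of the distinct 75-base stretches of ULBP2 and 19.58% of those of RAET1L were found in another gene, 237 of them in each other. The share was 31.93% for RAET1E, from an overlapping gene of the same strand (AL355312.5) that covers 35.0% of its exon bases. It was 10.11% for RAET1G, 9.41% for ULBP3, 3.16% for ULBP1 and 0 for MICA and MICB. The files list 13.3% to 17.5% of reads as left out for mapping quality and 7.36% to 8.37% as ambiguous, as shares of all reads in their totals, so the values of ULBP2, RAET1L, RAET1G and RAET1E rest on part of their sequence.

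RAET1L and ULBP1, the members that passed the test with caffeine in SW620, have different sequences upstream of their start sites. The 250 bases before the RefSeq start (GRCh38.p14) are shown because the responses of these genes differ. Capitals mark matches to 7 short motifs searched on both strands, of which TGANTCA (AP-1 type), TGANGCAA (C/EBP-ATF type) and GGGCGG (GC box) occurred in these windows.
RAET1L, chr6:150025533-150025782, minus strand: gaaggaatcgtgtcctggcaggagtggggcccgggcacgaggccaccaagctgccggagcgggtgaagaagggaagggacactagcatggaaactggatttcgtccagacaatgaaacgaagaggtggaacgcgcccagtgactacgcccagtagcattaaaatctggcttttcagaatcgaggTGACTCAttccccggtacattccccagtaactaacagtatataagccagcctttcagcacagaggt
ULBP1, chr6:149963693-149963942, plus strand: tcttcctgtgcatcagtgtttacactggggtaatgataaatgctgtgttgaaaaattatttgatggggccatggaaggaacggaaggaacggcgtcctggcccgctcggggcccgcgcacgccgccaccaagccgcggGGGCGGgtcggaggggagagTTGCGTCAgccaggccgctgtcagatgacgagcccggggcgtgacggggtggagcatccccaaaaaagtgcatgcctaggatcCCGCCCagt
RAET1L held 1 match, to TGANTCA at base -66, a motif in 6.57% of 35116 promoter windows of this length. ULBP1 held TGANGCAA at base -92 on the other strand (2.77% of windows) and GGGCGG at bases -112 and -9 (42.64% of windows). The CRE letters TGACGTCA, the E2F letters TTNGCGC, the E-box CACGTG and the heat shock letters GAANNTTC were found in neither. Among the other members MICA and MICB each held GAANNTTC (5.78% of windows), at bases -135 and -139, and ULBP3 held 6 GC boxes. A match describes letters in a window and was not tested as a binding site.

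Of the 8 genes, 6 had at least 26 counts in every library. MICA, MICB, ULBP1, ULBP2, ULBP3 and RAET1L were thus detected throughout, while RAET1E and RAET1G stood near the limit of detection in SW620. RAET1E had 9 and 19 counts in the SW480 controls, 6 and 16 with caffeine, 2 and 2 in the SW620 controls and 4 and 3 with caffeine. RAET1G had 6 and 5, 11 and 9, 5 and 1, and 4 and 2 counts in the same order.

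**Figure D1:**
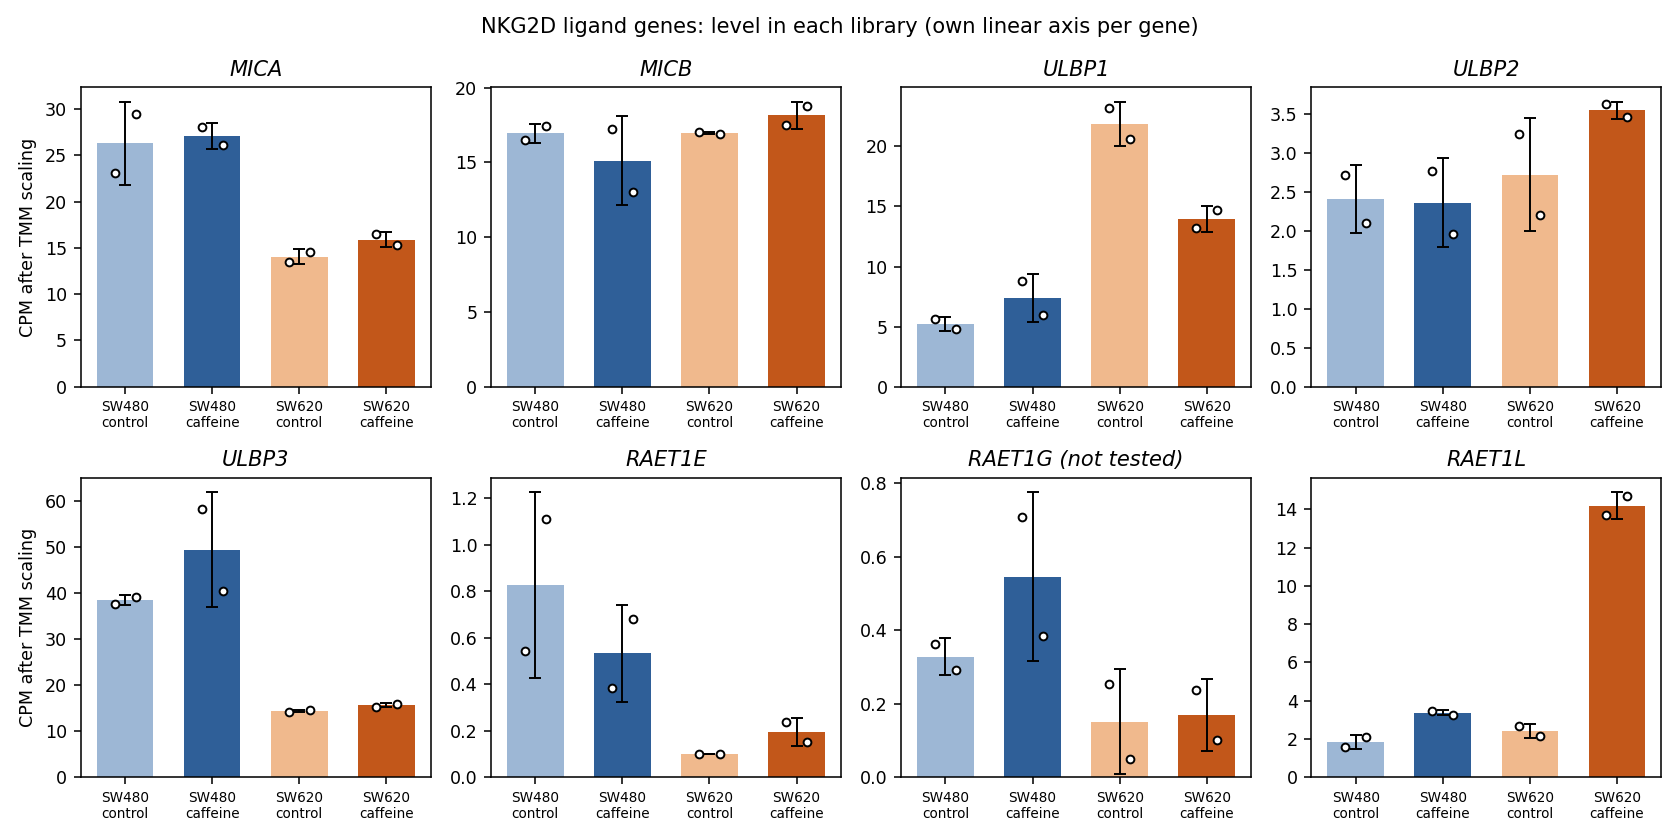
Level of each NKG2D ligand gene in CPM after TMM scaling, on its own linear axis; bars are means of 2 libraries, error bars the SD and circles the libraries. RAET1L in SW620 with caffeine (13.7 and 14.7 CPM) stands above its other 6 libraries (1.57 to 3.48 CPM), and ULBP1 is highest in the SW620 controls.

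Levels of different genes were compared per length, as RPKM, which is CPM divided by the exon length in kb. In the SW480 controls ULBP3 came first with 38.9 ± 1.18 RPKM (SD, n = 2), then MICA with 11 ± 1.92 and MICB with 6.06 ± 0.22. ULBP2 (1.79 ± 0.33), ULBP1 (1.66 ± 0.19) and RAET1L (1.36 ± 0.28) followed with ranges that overlapped from each to the next. RAET1E (0.275 ± 0.133) and RAET1G (0.220 ± 0.034) came last and overlapped too.

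SW620 controls had another order. ULBP3 was again first, at 14.6 ± 0.30 RPKM, but ULBP1 was second at 6.97 ± 0.58. MICB (6.06 ± 0.03) and MICA (5.89 ± 0.35) overlapped, as did ULBP2 (2.02 ± 0.54) and RAET1L (1.80 ± 0.28). RAET1G and RAET1E were last at 0.102 ± 0.097 and 0.034 RPKM. The first place of ULBP3 depended on length. In CPM, ULBP1 (mean 21.9) and MICB (16.9) stood above ULBP3 (14.4) in these controls. The exon length was 988 bases for ULBP3, 3142 for ULBP1 and 2798 for MICB.

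With caffeine the order within SW620 changed at places 2 to 6. RAET1L stood second, from place 6 in the controls, at 10.6 ± 0.56 RPKM, behind ULBP3 (15.8 ± 0.40) and ahead of MICA (6.65 ± 0.37) and MICB (6.48 ± 0.32), which overlapped each other. ULBP1 stood in place 5, from place 2, at 4.44 ± 0.33, ahead of ULBP2 (2.63 ± 0.08). In SW480 with caffeine ULBP3 (50.0 ± 12.7), MICA (11.4 ± 0.60) and MICB (5.39 ± 1.06) held the first 3 places, and RAET1L (2.51 ± 0.10), ULBP1 (2.35 ± 0.64) and ULBP2 (1.75 ± 0.42) came next, each overlapping the following one. When the number of 75-base stretches found in no other gene was used as the length, ULBP1 and RAET1L traded places 5 and 6 in the SW480 controls, and no other rank in any group changed.

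**Figure D2:**
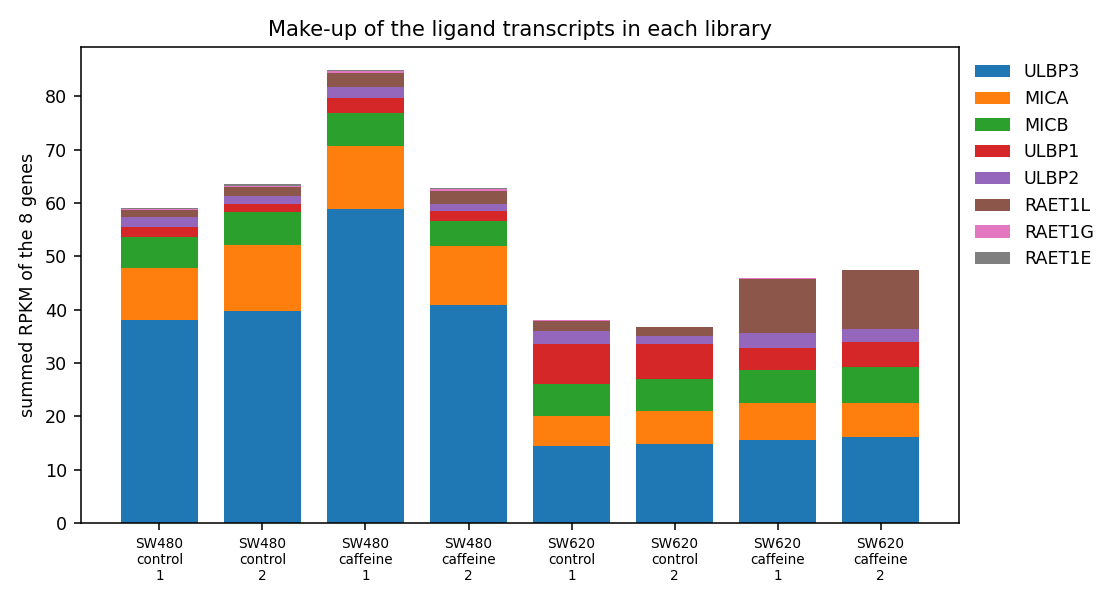
Summed RPKM of the 8 ligand genes in each of the 8 libraries, stacked by gene. ULBP3 takes 62.5% to 69.4% of the SW480 bars and 33.7% to 40.2% of the SW620 bars, and the RAET1L part of the SW620 bars is 4.35% and 5.23% in controls and 22.1% and 23.1% with caffeine.

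The ligand transcripts together were 61.3 ± 3.18 RPKM in the SW480 controls, 73.9 ± 15.6 with caffeine, 37.5 ± 0.88 in the SW620 controls and 46.7 ± 1.07 with caffeine. The SW480 ranges overlapped (59.0 and 63.5 against 84.9 and 62.8), and those of SW620 did not (38.1 and 36.8 against 46.0 and 47.5). ULBP1 made up 17.8% and 19.4% of the sum in the SW620 controls and 9.15% and 9.85% with caffeine. In SW480 its share was 2.40% to 3.30% in all 4 libraries.

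RAET1L and ULBP1 were the members whose caffeine response passed the test in SW620, in opposite directions (edgeR quasi-likelihood F test over all genes, adjusted p under 0.05). Of the 7 tested members 1 rose and 1 fell there, where 14.4% of all tested genes passed, 8.10% higher and 6.25% lower. The median log2 fold change was 0.175 over the members and -0.011 over the tested genes. No member (0 of 7) passed in SW480, where 3.60% of all genes did (1.67% higher, 1.93% lower), with medians of 0.042 and 0. DESeq2 and limma-voom also called 0 members in SW480, and 3 of the 7 had an unadjusted p under 0.05 in the edgeR test. As the family was put forward with these responses known, the values are a description and the shares are not read as evidence about the family.

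**Figure D3:**
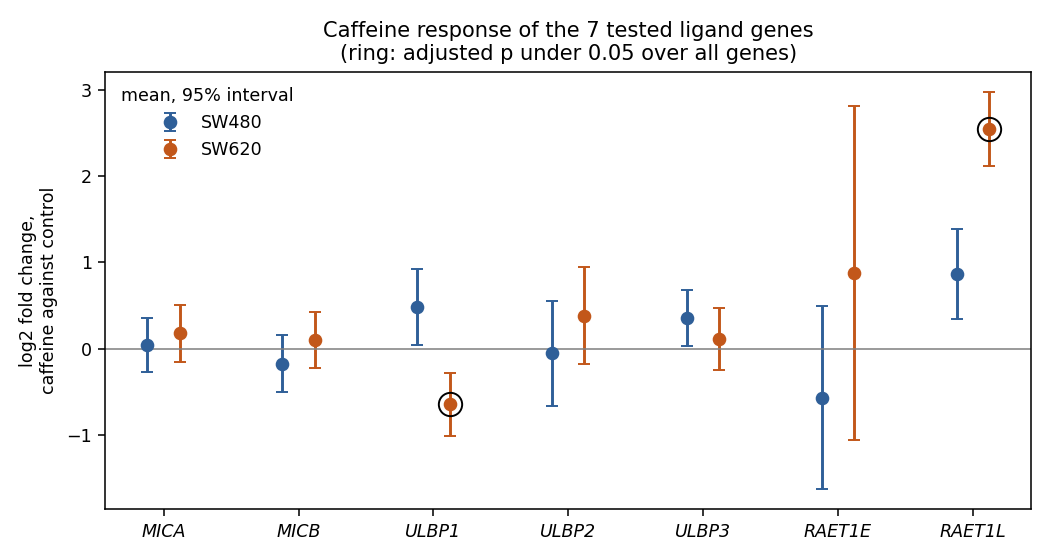
Log2 fold change of caffeine against control for the 7 tested ligand genes in SW480 (blue) and SW620 (orange), with 95% intervals from the fit; rings mark adjusted p under 0.05. The rings are at RAET1L (2.55) and ULBP1 (-0.65) in SW620, and the interval of RAET1E is the widest in both lines.

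RAET1L encodes a GPI-anchored ligand that is closely related to ULBP2. It had 53 and 43 counts in the SW620 controls and 230 and 293 with caffeine, or 2.68 and 2.15 against 13.7 and 14.7 CPM. The log2 fold change was 2.55 ± 0.20 (SE), or 5.87-fold, with an adjusted p of 4.93e-07 in the edgeR test. It kept its call in each of 8 fits that left out 1 library, at 2.41 to 2.73.

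In SW480 RAET1L had 26 and 36 counts in controls (1.57 and 2.10 CPM) and 54 and 77 with caffeine (3.48 and 3.28 CPM). The log2 fold change of 0.87 ± 0.25 missed the threshold (adjusted p = 0.0634, edgeR). It passed when genes with low counts were kept (0.88, adjusted p = 0.0449) and without SW480 control replicate 2 (1.08, adjusted p = 0.0444). The response in SW620 was larger than that in SW480 by 1.69 ± 0.33 on the log2 scale (edgeR, adjusted p = 0.00566), and this difference also kept its call in all 8 of the fits without 1 library, at 1.49 to 1.88.

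ULBP1, a GPI-anchored ligand whose transcription is known to be driven by the stress factor ATF4, had 458 and 411 counts in the SW620 controls and 222 and 292 with caffeine. These were 23.2 and 20.6 against 13.2 and 14.7 CPM. It fell by 0.65 ± 0.17 on the log2 scale (0.639-fold, adjusted p = 0.0188, edgeR). Leaving out any 1 of the 4 SW620 libraries ended the call, with values of -0.72 and an adjusted p of 0.0641 without caffeine replicate 2, -0.72 and 0.0692 without control replicate 2, -0.56 and 0.126 without caffeine replicate 1 and -0.55 and 0.19 without control replicate 1.

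In SW480 ULBP1 stood higher with caffeine, at 137 and 140 counts (8.82 and 5.96 CPM) against 93 and 82 (5.63 and 4.79 CPM). The log2 fold change of 0.48 ± 0.21 did not pass (adjusted p = 0.207, edgeR). The response in SW620 was lower than that in SW480 by 1.13 ± 0.27 (adjusted p = 0.018, edgeR). Without SW480 caffeine replicate 1, SW620 control replicate 1 or SW620 caffeine replicate 1 the adjusted p of this difference was 0.0568, 0.0895 and 0.0561. RAET1L and ULBP1 were the 2 of 7 members with a called difference between the lines, 1 higher and 1 lower in SW620. Over all genes 6.71% had one, 4.24% higher and 2.47% lower, and the medians were 0.278 over the members and -0.025 over all genes.

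ULBP3, first per length (RPKM) in both lines, had 37.6 and 39.2 CPM in the SW480 controls and 58.2 and 40.5 with caffeine. The treated libraries differed more from each other than the lower of them did from the controls. The log2 fold change was 0.36 ± 0.15 (adjusted p = 0.211, edgeR), and it was 0.08 without SW480 caffeine replicate 1. In SW620 the values were 14.2 and 14.6 CPM against 15.3 and 15.9, a log2 fold change of 0.11 with a 95% interval of -0.24 to 0.47.

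ULBP2, the near twin of RAET1L, had 3.24 and 2.21 CPM in the SW620 controls and 3.63 and 3.47 with caffeine, a log2 fold change of 0.38 ± 0.27 (adjusted p = 0.377, edgeR). In SW480 it had 2.72 and 2.10 CPM against 2.77 and 1.96, a log2 fold change of -0.06 with an interval of -0.67 to 0.56.

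The MHC-linked pair did not pass in either line. MICA had 23.1 and 29.5 CPM in the SW480 controls and 28.1 and 26.1 with caffeine, so the treated values lay between the controls. The log2 fold change was 0.04 with a 95% interval of -0.27 to 0.35. In SW620 MICA had 13.5 and 14.6 CPM against 16.5 and 15.3, a log2 fold change of 0.18 (-0.15 to 0.50). MICB had 16.5 and 17.4 CPM against 17.2 and 13.0 in SW480, a log2 fold change of -0.18 (-0.51 to 0.15). In SW620 it had 17.0 and 16.9 against 17.5 and 18.8, a log2 fold change of 0.10 (-0.23 to 0.42). These intervals leave room for changes of up to about 0.5 in size on the log2 scale.

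RAET1E and RAET1G, at 1.11 CPM or less in every library, were too shallow for a response of that size to be seen. For RAET1E the log2 fold change was -0.57 (-1.64 to 0.49) in SW480 and 0.88 (-1.06 to 2.82) in SW620. The ratio of RAET1G counts was 1.57 in SW480 (20 against 11 counts, 0.716 to 3.62, covering counting error only) and 1.08 in SW620 (6 against 6 counts, 0.29 to 4.05).

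Untreated, the 2 lines differed in 4 of the 7 tested members, 1 of which, RAET1E, had enough reads only in SW480. Over all genes 65.6% differed, 33.0% higher and 32.6% lower in SW620, so a called difference was common. ULBP1 was higher in SW620, at 23.2 and 20.6 CPM against 5.63 and 4.79 (log2 difference 2.07 ± 0.19, 4.20-fold, adjusted p = 6.26e-08, edgeR). ULBP3 was lower, at 14.2 and 14.6 against 37.6 and 39.2 CPM (-1.41 ± 0.16, adjusted p = 9.25e-07). MICA was lower, at 13.5 and 14.6 against 23.1 and 29.5 CPM (-0.91 ± 0.15, adjusted p = 5.82e-05). RAET1E had 4 counts over both SW620 controls and 28 over both SW480 controls. It passed the filter on low counts only through SW480, so that a tested RAET1E had to be higher there, and its call is no support for a difference.

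In the 8 fits without 1 library the log2 difference ran from 1.93 to 2.18 for ULBP1, from -1.454 to -1.405 for ULBP3 and from -1.083 to -0.747 for MICA. MICB stood at 17.0 and 16.9 against 16.5 and 17.4 CPM, with a log2 difference of -0.001 and an interval of -0.33 to 0.33. ULBP2 (0.18 ± 0.28) and RAET1L (0.39 ± 0.26) did not pass. The median was -0.001 over the 7 members, RAET1E included, and 0.032 over all genes. The contrast between lines shares its control libraries with both caffeine contrasts.

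**Figure D4:**
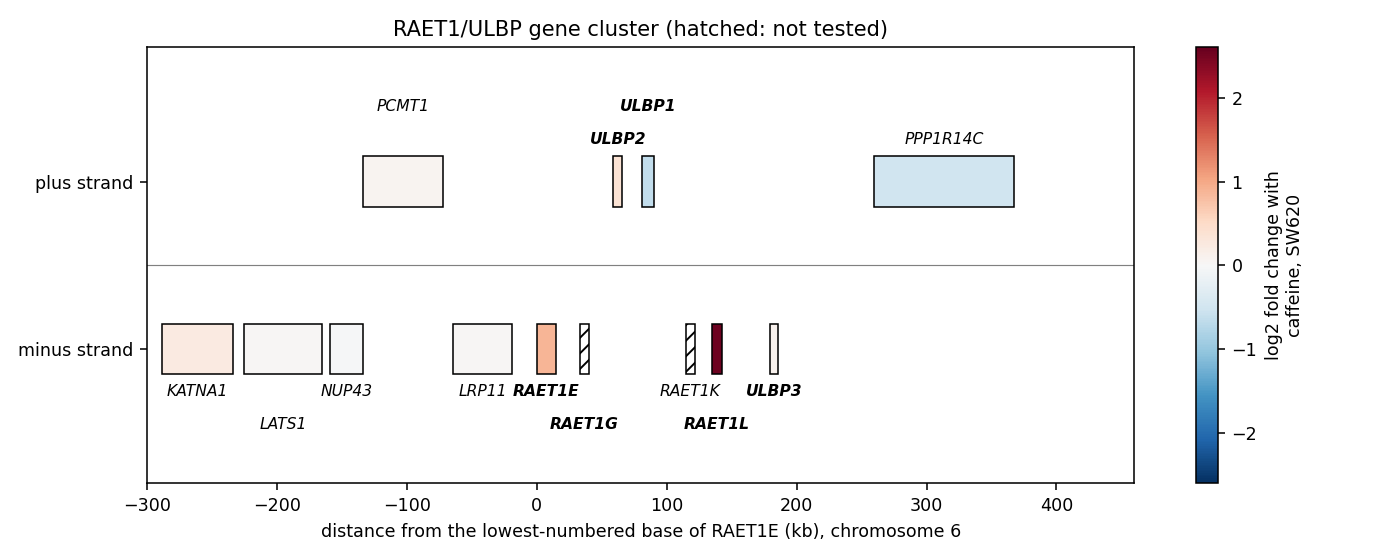
Map of the RAET1/ULBP cluster and the tested genes within 250 kb of it, by distance in kb from the lowest-numbered base of RAET1E, with the SW620 caffeine log2 fold change as colour. RAET1L (2.55) is the darkest box, ULBP1 (-0.65) is on the other side of 0, and the 6 tested neighbours run from -0.52 to 0.24.

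Genes beside the RAET1/ULBP cluster did not pass with caffeine. Of 25 other genes within 250 kb, 6 were tested and 0 were called in either caffeine contrast by edgeR, DESeq2 or limma-voom. Over all genes edgeR called 3.60% in SW480 and 14.4% in SW620, so 0 of 6 is near those shares. Of the 6 tested neighbours, 1 had an unadjusted p under 0.05 in SW480 and 0 in SW620 (edgeR). Their SW620 log2 fold changes ran from -0.52 for PPP1R14C (adjusted p = 0.226) to 0.24 for KATNA1 (adjusted p = 0.315). PPP1R14C differed between the untreated lines (-3.75 ± 0.19, adjusted p = 2.8e-11). Around MICA and MICB 29 of 75 other genes were tested, of which 1 was called in SW480, and 2 rose and 3 fell in SW620, near the 3.60% and 14.4% of all genes. HCP5, a noncoding gene that shares 62 exon bases with MICA on the same strand, was among those that fell in SW620 (-0.65 ± 0.14, adjusted p = 0.00497). The call of HCP5 was lost without SW620 control replicate 2 or SW620 caffeine replicate 2. HCP5 had 53 and 63 counts in the SW480 controls and 623 and 699 in the SW620 controls. Its log2 difference between the untreated lines was 3.27 ± 0.17 (adjusted p = 3e-11, edgeR). RAET1K, a pseudogene of the family next to RAET1L, had 0 counts in every library.

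Genes with the profile most like a member over the 8 libraries were taken by the distance between centred log2 CPM values. For RAET1L these were H1-2 (distance 0.667), which encodes a linker histone, PPFIA4 (0.688), and an Ensembl gene that has no symbol in the name table used (0.707). H1-2 averaged 47.6, 96.7, 74.8 and 404 CPM in untreated and treated SW480 and then in untreated and treated SW620. PPFIA4 averaged 5.43, 9.29, 5.52 and 34.3 CPM. For ULBP1 they were UBAP1L (0.505), WARS2-AS1 (0.506) and LRRCC1 (0.528), and for ULBP3 ZKSCAN5, CRB2 and IFT22 (0.366 to 0.404). YWHAQ, UCKL1 and CSTF1 were nearest to MICA (0.169 to 0.195), KPNA6, RHOT1 and WIPF2 to MICB (0.187 to 0.189), ATXN1-AS1, PRDM1 and ZNF227 to ULBP2 (0.238 to 0.372), and CDKN1C, SH2B2 and ROM1 to RAET1E (0.699 to 0.734). RAET1E had few counts and passed the filter on low counts only through SW480. Its nearest genes, all lower in untreated SW620, are therefore no support for a shared profile.

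Among 20 targets of ATF4, the factor of the integrated stress response that is known to drive ULBP1, 11 rose with caffeine in SW480 and 0 fell, with a median of 0.597 (1.67% and 1.93% of all genes, median 0). INHBE (1.63 ± 0.17, adjusted p = 9.56e-05, edgeR), CHAC1 (1.38 ± 0.17), DDIT4 (0.90 ± 0.12) and SESN2 (1.01 ± 0.14) led, and all 4 kept their calls without any 1 library. The count was 4 when either SW480 control replicate 1 or SW480 caffeine replicate 2 was left out. In SW620 1 of the 20 rose and 8 fell, with a median of -0.274 (8.10% and 6.25% of all genes, median -0.011). NUPR1 (-2.46 ± 0.23, adjusted p = 3.41e-06) and CHAC1 (-0.78 ± 0.14) kept their calls in all fits without 1 library. The count that fell was 2 without SW620 control replicate 1, 3 without SW620 control replicate 2 and 3 without SW620 caffeine replicate 1.

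The difference of the responses was called lower in SW620 for 11 of the 20 and higher for 0 (2.47% and 4.24% of all genes), with 8 to 14 lower in the fits without 1 library. Untreated SW620 was higher in 16 of the 20 and lower in 1, with a median of 1.64 (33.0% and 32.6% of all genes, median 0.032). NUPR1, among the 16, had 0 and 2 counts in the SW480 controls and 217 and 224 in the SW620 controls. It passed the filter on low counts only through SW620, so it had to be higher there and its call is no support. A link between ULBP1 and these targets was not tested. ATF4 itself averaged 494 ± 63.0 CPM in the SW480 controls, 670 ± 25.9 with caffeine, 1340 ± 29.7 in the SW620 controls and 1130 ± 30.1 with caffeine. Its difference of responses passed (-0.68 ± 0.18, adjusted p = 0.0303, edgeR), but in 6 of the 8 fits without 1 library it did not (adjusted p up to 0.177).

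**Figure D5:**
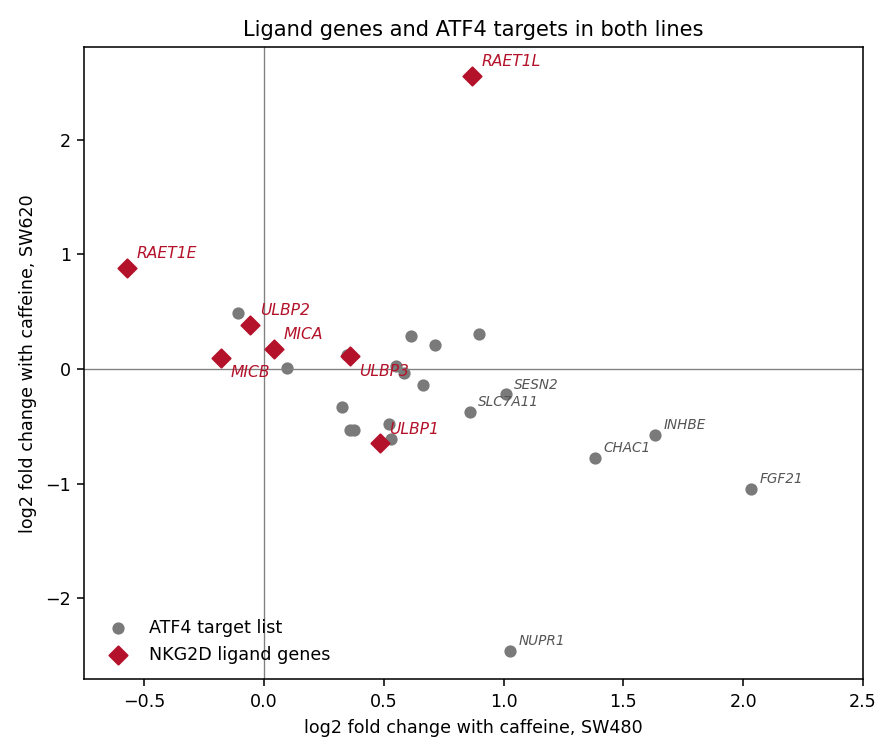
Log2 fold change with caffeine in SW480 (x axis) and SW620 (y axis) for the 7 tested ligand genes (red diamonds) and 20 ATF4 targets (grey points). ULBP1 (0.48, -0.65) lies at the lower right, where CHAC1 (1.38, -0.78) and INHBE (1.63, -0.57) also lie, and RAET1L (0.87, 2.55) lies at the top. Other targets lie elsewhere. Mean CPM was higher with caffeine in both lines for DDIT4, TRIB3, VLDLR and ATF3 among others. DDIT3 was lower in SW480 and higher in SW620. The SW480 value of ULBP1 did not pass the test.

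Of 26 genes reported to regulate NKG2D ligands, 0 were called with caffeine in SW480 by edgeR and 1 each by DESeq2 and limma-voom, with 7 at an unadjusted p under 0.05 (edgeR). Over all genes edgeR called 3.60% there, so 0 of 26 is near that share. Without SW480 control replicate 2 edgeR called 1 higher and 3 lower. In SW620, 2 rose and 1 fell, near or below the shares over all genes (8.10% and 6.25%). E2F1, a cell-cycle factor, fell from 58.2 ± 1.29 to 35.2 ± 0.51 CPM in SW620 (-0.73 ± 0.16, adjusted p = 0.00516, edgeR). Its adjusted p was 0.0519 without SW620 control replicate 1. The signalling factors RELA (0.39 ± 0.12) and STAT3 (0.45 ± 0.13) rose. RELA lost its call without any 1 of the SW620 libraries, and STAT3 without SW620 control replicate 1, SW620 control replicate 2 or SW620 caffeine replicate 2. Untreated SW620 was higher in 9 of the 26 and lower in 5, where 33.0% and 32.6% of all genes were.

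Heat shock factor targets, the chaperone genes whose factor is known to act on MICA and MICB, were called in SW480 for 0 of 10 by edgeR, DESeq2 and limma-voom, with 2 at an unadjusted p under 0.05 (edgeR). Over all genes edgeR called 3.60% there, so 0 of 10 is near that share. In SW620 3 of 10 fell, namely HSPA1B (-0.89 ± 0.18, adjusted p = 0.00338, edgeR), HSPA8 (-0.63 ± 0.13) and HSPE1 (-0.54 ± 0.17), where 6.25% of all genes were lower. That count was 1 without SW620 control replicate 1, SW620 control replicate 2 or SW620 caffeine replicate 2. Untreated SW620 was lower in 8 of the 10 and higher in 1 (32.6% and 33.0% of all genes).

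ADAM17, a metalloprotease known to cut NKG2D ligands from the cell surface, was the 1 of 8 tested shedding genes that rose with caffeine in SW620, where 8.10% of all genes did. It had 27.8 and 26.6 CPM in controls and 47.7 and 52.2 with caffeine (0.88 ± 0.14, adjusted p = 0.000424, edgeR), and 0.81 to 0.95 in the fits without 1 library, all called. ADAM9 (0.38 ± 0.12, adjusted p = 0.051) and RHBDF2 (0.37 ± 0.12, adjusted p = 0.057) missed the threshold, and 3 of the 8 were called by DESeq2, by limma-voom and by edgeR without any 1 of the SW480 libraries. In SW480 its values were 41.1 and 33.3 against 38.2 and 37.3 CPM. The difference between the responses was 0.86 ± 0.19 (adjusted p = 0.013, edgeR) and lost its call without SW620 control replicate 1, SW620 control replicate 2 or SW620 caffeine replicate 2 (adjusted p up to 0.0842). Of the 5 genes that attach GPI anchors 0 were called with caffeine in either line by edgeR, DESeq2 or limma-voom. Over all genes edgeR called 3.60% in SW480 and 14.4% in SW620, so 0 of 5 is near those shares. Of the 5 GPI genes, 0 had an unadjusted p under 0.05 (edgeR). Their log2 fold changes ran from -0.19 for PIGK in SW620 to 0.31 for GPAA1 in SW480.

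Other ligands that activate NK cells were called lower in SW480 for 3 of 9 tested genes (1.93% of all genes). These were ICAM1 (-0.67 ± 0.14), CD70 (-1.46 ± 0.31) and CD58 (-0.72 ± 0.18), and 0 of the 9 were called without SW480 caffeine replicate 2. In SW620 NECTIN2 rose (0.48 ± 0.13, adjusted p = 0.0182, edgeR) and ICAM1 and NCR3LG1 fell (8.10% and 6.25% of all genes). NECTIN2, ICAM1 and NCR3LG1 all lost their calls without SW620 control replicate 1, SW620 control replicate 2 or SW620 caffeine replicate 1. Of the 9 genes, edgeR called 3 in SW620, DESeq2 2 and limma-voom 1. Among 12 ligands of inhibitory NK receptors 1 was called in SW480, CEACAM1, which fell (-1.44 ± 0.20, adjusted p = 0.00102, edgeR), where 1.93% of all genes fell. In SW620 CDH1, which encodes the KLRG1 ligand E-cadherin, rose (0.97 ± 0.13, adjusted p = 8.15e-05, edgeR), and HLA-B (-0.90 ± 0.13), B2M (-0.47 ± 0.13) and CLEC2D (-0.55 ± 0.16) fell, so 1 of 12 rose and 3 fell beside the same shares over all genes. B2M and CLEC2D lost their calls without SW620 control replicate 1, SW620 control replicate 2 or SW620 caffeine replicate 2, and CDH1 and HLA-B kept theirs in all 8 fits.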

How the data were processed

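Per the labels' protocols, a directional poly-A kit was used and single-end reads of 75 bases were taken. Per the submitters' processing notes, Trim Galore, STAR 2.7.3a, featureCounts 2.0.5 and hg38 were used. Strand setting and annotation release are not given in the sources used here. The authors deposited raw counts per Ensembl gene, 1 file per library, and the 12 assignment totals of each file were left out of the tests.

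Counts were fitted with edgeR 4.0.16 in R 4.3.3 (filterByExpr, TMM scaling, robust quasi-likelihood fit, F test, Benjamini-Hochberg adjustment over 17671 genes, threshold 0.05). All 8 libraries entered 1 fit with 4 group means, and the biological coefficient of variation was 10.5%. The fit was checked on simulated data. The SE is the log2 fold change over the root of F. CPM uses TMM scaling, and RPKM divides it by the exon union length (GENCODE 29). Profiles used log2 CPM with a prior count of 2, over genes with a mean of at least 1. Promoters were taken from RefSeq, where all 8 members matched.

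The members and gene lists were chosen with earlier results of these data known. All members are named, up to 4 genes of each other list per comparison by adjusted p, and the 3 nearest profiles per member. Further genes with a called difference between the responses are named as well, chosen after their values were seen. Alternatives were DESeq2 1.42.0, limma-voom (limma 3.58.1), other scaling, no filter, separate fits, a replicate block and leaving out each library. Counts over lists without 1 library and the length from unshared 75-base stretches were chosen after seeing the data.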

Additional observations from a re-analysis of the deposited data

Results flagged for a closer look

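The caffeine response differed between the lines for 2 ligand genes in the edgeR test of the difference (SW620 minus SW480, log2, adjusted p under 0.05), RAET1L by 1.69 and ULBP1 by -1.13. Among the genes of the other lists, the difference was called for the protease ADAM17 (0.86), the activating ligand CD58 (1.115) and the inhibitory ligands CDH1 (2.46), CEACAM1 (1.05) and CLEC2D (-0.91). Among reported regulators it was called for E2F1 (-0.999) and ATF4 (-0.68). Among markers of other cell types it was called for VWF (1.75), at 0.579 to 1.45 CPM in SW480. Among 20 ATF4 targets it was called for 11, namely FGF21 (-3.08), INHBE (-2.20), CHAC1 (-2.16), SLC7A11 (-1.23), SESN2 (-1.23), ATF5 (-1.14), PSAT1 (-1.003), PHGDH (-0.91), STC2 (-0.89), SLC3A2 (-0.65) and DDIT4 (-0.59). The call was kept in all 8 fits without 1 library for RAET1L, CDH1, FGF21, INHBE, CHAC1, SLC7A11, SESN2, ATF5, PSAT1 and STC2, and in 7 for PHGDH. ULBP1 and ADAM17 kept it in 5, CD58 and VWF in 5, E2F1 in 6, CEACAM1 in 3, ATF4, CLEC2D and SLC3A2 in 2, and DDIT4 in 1. CDH1 stood at 0.804 ± 0.147 and 0.256 ± 0.180 CPM (SD, n = 2) in SW480 control and caffeine, so its difference rests on few reads there. FGF21 had 5 and 3 counts in the SW480 controls and 14 and 25 with caffeine, so its difference rests on few reads too. Under DESeq2 its responses in SW480 (adjusted p = 0.0658) and SW620 (adjusted p = 0.136) did not pass. What lies behind these differences was not tested.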

How the results depend on the processing

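Without the filter on low counts 1073 genes were called in SW480 (636 with it), 1 member among them, RAET1L (0.88, adjusted p = 0.0449, edgeR). With each line fitted alone 4617 genes were called in SW620 (2537 in the joint fit) and the same number of members, 2. Leaving out 1 library in turn gave 56 to 1421 called genes in SW480, 801 to 3245 in SW620, 451 to 2188 for the difference of the responses and 9789 to 12043 between the untreated lines. Members called were 0 to 1, 1 to 2, 1 to 2 and 4 (RAET1E among them) in the same order. A group left with 1 library was assumed to vary like the others.

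Signs turned for uncalled values only, and only when 1 library was left out. In SW480 the ranges were -0.125 to 0.216 for MICA (below 0 without control replicate 1 or, at -0.011, caffeine replicate 1), -0.297 to 0.179 for ULBP2 (above 0 without control replicate 1 or caffeine replicate 2) and -1.109 to 0.012 for RAET1E (above 0 without control replicate 2). For the difference they were -0.029 to 0.305 for MICA (below 0 without SW480 control replicate 2) and -0.458 to 0.041 for ULBP3 (above 0 without SW480 caffeine replicate 1). Between the untreated lines they were -0.049 to 0.004 for MICB (above 0 without SW480 control replicate 2) and -0.142 to 0.416 for ULBP2 (below 0 without SW620 control replicate 1 or SW480 control replicate 2). The cause was not tested. Under DESeq2, limma-voom and DESeq2 size factors each comparison had the same number of called members as the main fit.

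A replicate block gave 590, 2249, 1087 and 11397 called genes and 0, 2, 2 and 4 members. No label says that replicate numbers pair samples, and same-numbered deviations correlated by 0.0265 in SW480 and 0.0134 in SW620. Of 64 member levels under other scalings 61 stayed within 1 SD, and the largest move was 1.43%. RAET1G, tested in 7 of the fits without 1 library, was called in 0 of them in each comparison. Depth limits RAET1E and RAET1G.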
